A study of Mus musculus with 10 samples.

Results

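Klf2, Klf4 and Klf5 are Krüppel-like transcription factor genes, and their loci were described here across ChIP-seq peak lists of SOX15 and SOX2 in mouse embryonic stem cells. A locus was the gene body in the RefSeq positions of mouse build mm10 plus 100 kb on either side, and a peak belonged to it when its summit lay inside. The 3 genes were taken from 21631 protein-coding genes, and their loci held 20 of the 8819 peaks in all 5 lists. The cells were grown in 2i/LIF medium, which holds them in the naive state, and carried an HA tag on SOX15 or on SOX2 knocked in at the factor's own gene. The groups were 3 libraries of HA-tagged SOX15 and 2 of HA-tagged SOX2, from chromatin fixed with formaldehyde and sheared. The 5 input libraries were not analysed here. The sources used here do not say how many clones carried each tag or if each replicate came from its own culture, so differences between replicates may be technical.

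Klf2, Klf4 and Klf5 bind GC-rich DNA through a C-terminal array of zinc fingers, a domain shared with the wider KLF and SP family. In mouse embryonic stem cells they act together in self-renewal. Klf4 is best known as one of the reprogramming factors and is a target of LIF and STAT3 signalling, and the Klf2 protein is stabilised when MEK is inhibited, as in 2i medium. Klf5 is also needed in the early embryo for the trophectoderm and inner cell mass. SOX2 is a core pluripotency factor that pairs with OCT4 on DNA, and SOX15 is a related HMG-box factor. Peak lists hold no expression values, so the cell type in the labels could not be checked against marker genes.

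SOX15 had 1 peak at the 3 loci, at the start of Klf2 and in replicate 2 alone, while the SOX2 libraries had 10 and 9 peaks in replicates 1 and 2. The SOX2 peaks formed 11 regions, where peaks overlapping by at least 1 bp count as 1 region. Of these, 8 had a peak in both SOX2 libraries and are called reproducible below, 2 at Klf2, 3 at Klf4 and 3 at Klf5. Each locus had 1 further SOX2 region called in a single library. None of the 8 reproducible regions overlapped a peak of any SOX15 library or the body of a gene in the RefSeq table. By the place of its best region in the SOX2 lists, Klf2 came first, then Klf4 and then Klf5.

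**Figure D1:**
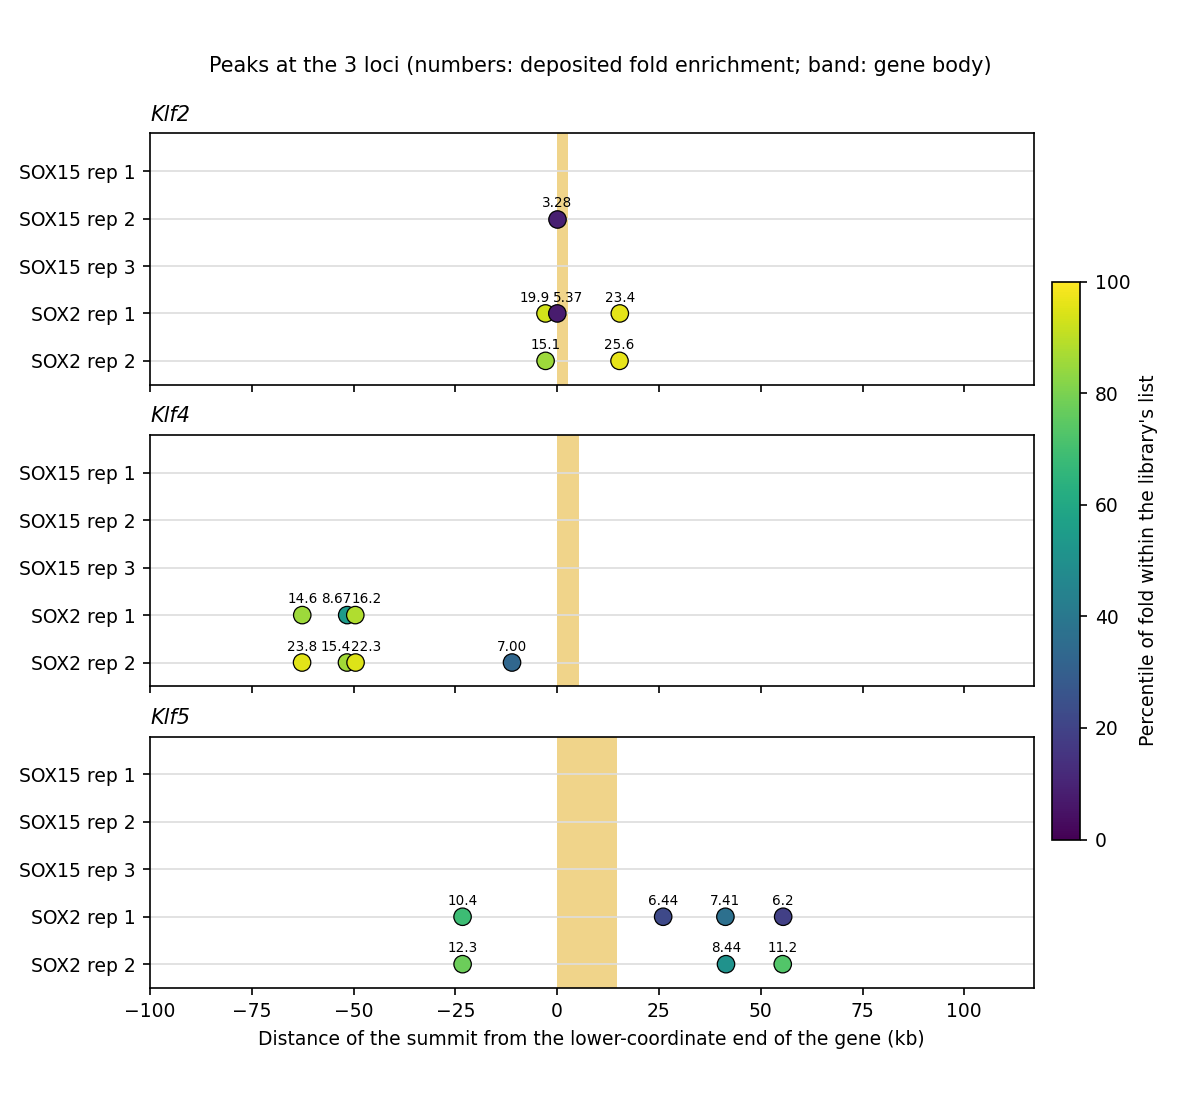
Each dot is a peak in one library, placed by the distance of its summit from the lower-coordinate end of the gene in kb, with SOX15 libraries above SOX2 libraries; colour gives the percentile of its fold within its list and the number its deposited fold. SOX15 has 1 dot, at the start of Klf2 (fold 3.28), while the SOX2 dots of Klf4 all lie on the lower-coordinate side of the gene, which is downstream for this gene.

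The one stretch with peaks of both factors was the start of Klf2, and its promoter is shown because the summits of both peaks fall in it. Klf2 lies on the plus strand of chromosome 8, from 72319062 to 72321654. The window below runs from 250 bases before the start site through the first 50 transcribed bases, at chr8:72318812-72319111 on the plus strand, from RefSeq in build GRCm38.p6, whose chromosomes are those of mm10. Capitals mark the 88 bases inside the SOX2 replicate 1 peak, and the last 25 of them are also inside the SOX15 replicate 2 peak.
Klf2 promoter: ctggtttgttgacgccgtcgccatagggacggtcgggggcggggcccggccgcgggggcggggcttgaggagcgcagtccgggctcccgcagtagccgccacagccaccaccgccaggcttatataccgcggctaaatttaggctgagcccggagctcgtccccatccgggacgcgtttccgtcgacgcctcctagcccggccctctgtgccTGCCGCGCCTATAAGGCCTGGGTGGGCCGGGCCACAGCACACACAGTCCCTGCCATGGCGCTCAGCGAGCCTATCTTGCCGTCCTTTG

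At this start the SOX15 replicate 2 peak (chromosome 8, 72319087 to 72319291) had a deposited fold enrichment of 3.28 and a −log10 q-value of 3.77. It was number 615 of the 672 peaks of its list by fold. SOX15 replicates 1 and 3 had no peak there. The SOX2 replicate 1 peak (72319024 to 72319237) had a fold of 5.37 and a −log10 q-value of 8.15, number 2477 of 2676 in its list, and SOX2 replicate 2 had no peak there. Both peaks thus stood near the foot of their lists and each was called in 1 library of its factor. Their summits were 1 bp apart, 40 bp for SOX15 and 39 bp for SOX2 past the first base of Klf2, and they shared 151 bp. Among the 138 peaks of SOX15 replicate 2 that overlapped a peak of SOX2 replicate 1 anywhere (20.5% of its list), the median distance between summits was 49 bp, and 6 were at most 1 bp apart.

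Start sites seldom carried a peak in any of these libraries. Of the 17274 protein-coding genes in the promoter table, SOX15 replicates 1, 2 and 3 had a peak within 250 bp of a start site at 36 (0.208%), 62 (0.359%) and 46 (0.266%). SOX2 replicates 1 and 2 had one at 74 (0.428%) and 73 (0.423%). These shares are not scaled to list length and do not compare the factors. The lists held 217, 672 and 437 peaks for SOX15 and 2676 and 4817 for SOX2. Of the 62 genes with a SOX15 replicate 2 peak, 29 also had a SOX2 replicate 1 peak (46.8%) and 10 a SOX2 replicate 2 peak (16.1%). For the other SOX15 libraries it was 27 in replicate 1 (43.5%) and 25 in replicate 3 (40.3%). The 29 genes, looked at after the Klf2 values were seen, were 15 clustered histone genes and 14 others, Klf2 among them. The others included Eef1a1 (a translation elongation factor gene) and Polr2a (the gene of the large RNA polymerase II subunit). Gapdh (a glycolytic enzyme gene) and Tfcp2l1, of the naive pluripotency list below, were also among the 14. The share of histone genes over all promoters was not counted, so the 15 only describes this list. The genes named are examples from the 14 and do not place Klf2 in a class. Klf2, Gapdh, Tob1 and Tex19.1 were the 4 genes with peaks of SOX15 replicate 2 and SOX2 replicate 1 at the start and of no other library.

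By base composition the Klf2 promoter was 69.3% G and C, against a median of 56.7% over 21020 promoters of protein-coding genes in the table. The promoters with a SOX15 replicate 2 peak had a median of 55.3% (n = 63), and those with a SOX2 replicate 1 peak 59.7% (n = 80). Those with both, Klf2 among them, had a median of 52.0% (n = 29). The KLF and SP letters GGGCGGG occurred 2 times in the Klf2 promoter, 214 and 195 bases before its first transcribed base, and 15.05% of promoters held this word 2 or more times on either strand, while 34.2% held it at least once. The Klf4 promoter, which had no peak in the 5 libraries, held it 4 times, and 2.45% of promoters held 4 or more. Neither promoter held the SOX words ACAAAG (16.9% of promoters) or ACAATG (10.5%), the octamer letters ATGCAAA (4.28%), or the second KLF word GGGTGTG (8.09%). All 5 words were searched on both strands. A word of this kind marks letters, not a bound site, and its absence from 300 bases says nothing about the factor. The sequences of the distal regions were not used here.

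The strongest SOX2 region of the 3 loci, in either library, lay at Klf2. This region downstream of the gene (chromosome 8, 72334175 to 72334674) had a fold of 23.4 in SOX2 replicate 1 and 25.6 in replicate 2, with −log10 q-values of 91.0 and 114.9. These were number 111 of 2676 and number 175 of 4817 in their lists. Its summits lay 15.39 and 15.32 kb past the start of Klf2, 71 bp apart. The nearest protein-coding gene was Eps15l1, a gene of the endocytic machinery, at 6.54 and 6.61 kb, so the region sits between the 2 genes and closer to the other one.

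The second reproducible Klf2 region lay upstream (chromosome 8, 72315991 to 72316432), 2.87 and 2.84 kb before the start. Its fold was 19.9 in SOX2 replicate 1, number 187 of the list, and 15.1 in replicate 2, number 704. The summits were 26 bp apart. The percentiles of the Klf2 regions were 95.9 and 96.4 downstream and 93.0 and 85.4 upstream in replicates 1 and 2. The downstream region thus stood higher than the upstream one in both lists. Reproducible SOX2 regions with a mean summit within 5 kb of a protein-coding start site made up 12.2% of the 2288 on chromosomes in the promoter table. Other protein-coding genes with at least a part within 100 kb of Klf2 were Ap1m1 at 61.7 kb and Fam32a at 94.0 kb.

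At Klf4 every SOX2 peak lay downstream of the gene, and no peak lay upstream or within it in any of the 5 libraries. Klf4 is on the minus strand of chromosome 4, from 55527137 to 55532475, and no other protein-coding gene lies within 100 kb. The farthest region (55464174 to 55464790), 67.94 and 67.99 kb from the start site, had a fold of 14.6 in SOX2 replicate 1 and 23.8 in replicate 2, number 393 and number 217 of the lists. The region nearest to the gene among the reproducible ones (55477317 to 55477884), 54.92 and 54.85 kb from the start site, had a fold of 16.2 and 22.3, number 318 and number 258. Between them (55475264 to 55475807), 56.91 and 56.96 kb from the start site, the fold was 8.67 in replicate 1 and 15.4 in replicate 2, number 1219 and number 671.

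The 3 Klf4 regions formed a cluster 13.1 kb across, and the inner pair was 2.05 kb apart. Of all 2369 reproducible SOX2 regions, 153 (6.46%) had another within 5 kb, and the median distance to the next was 197 kb. Each of the 3 held a higher percentile in SOX2 replicate 2 than in replicate 1, as did 69.9% of all reproducible regions. The middle region differed most between libraries, with percentiles of 54.5 in replicate 1 and 86.1 in replicate 2, while the outer pair stood at 85.4 and 88.2 in replicate 1 and 95.5 and 94.7 in replicate 2. Summits of the 2 libraries were 45, 53 and 68 bp apart, against a median of 22 bp over all reproducible regions. One weaker peak lay closer in (55515975 to 55516233), 16.42 kb from the start site, with a fold of 6.999 in SOX2 replicate 2 and none in replicate 1. Because the cluster is so far from the gene, a window of 50 kb around the gene body kept 1 of the 3 regions.

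Klf5 had as many reproducible SOX2 regions as Klf4, but its best region stood lower in both lists and the regions were more spread. The gene lies on chromosome 14 from 99298691 to 99313412, and distances are given from the ends of its body. The strongest region (99275225 to 99275770) lay 23.2 kb below the lower end, with a fold of 10.4 in SOX2 replicate 1 and 12.3 in replicate 2, number 841 and number 1079 of the lists. Pibf1, a centrosome protein gene, was nearer to it, at 20.6 kb. Its summits agreed to 13 bp, the closest of the 8 regions.

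The other Klf5 regions lay beyond the upper end. One (99339644 to 99340470), 26.6 and 26.8 kb out, had a fold of 7.41 and 8.44, number 1698 and number 2365. The last (99353790 to 99354301), 40.8 and 40.7 kb out, had a fold of 6.20 in replicate 1 and 11.2 in replicate 2, number 2169 and number 1316. This was the largest disagreement among the 8 regions, with percentiles of 19.0 and 72.7. Over all reproducible regions the percentiles differed by more than 20 points in 44.2%. The summits of these 2 regions were 145 and 106 bp apart, the widest of the 8. A single-library peak (99324628 to 99324839), 11.3 kb past the upper end, had a fold of 6.44 in SOX2 replicate 1.

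**Figure D2:**
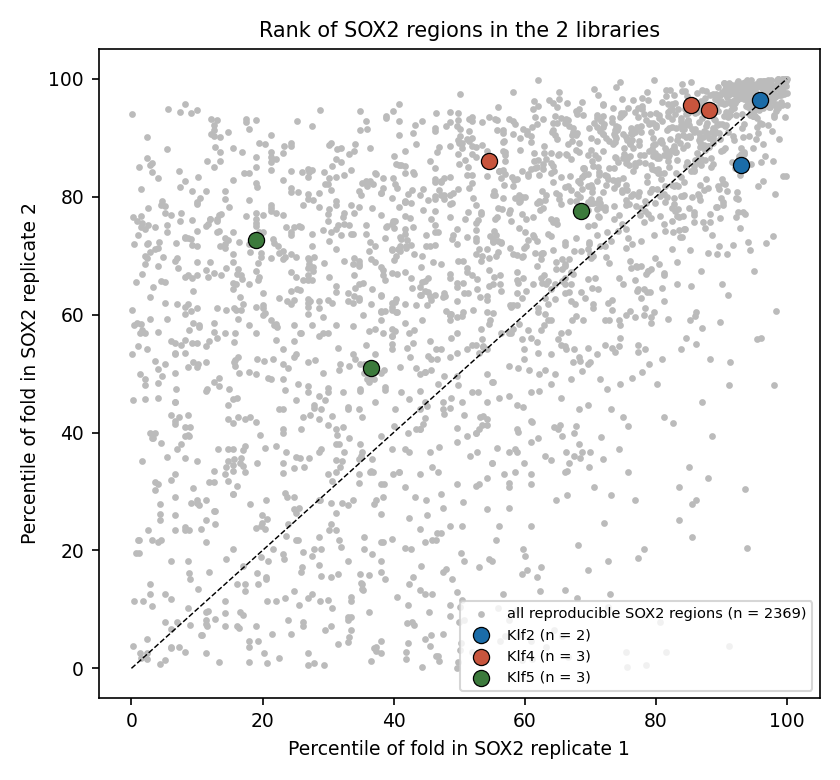
Each grey dot is one of the 2369 reproducible SOX2 regions, placed by the percentile of its fold in the list of SOX2 replicate 1 (horizontal) and replicate 2 (vertical); larger dots are the 8 regions of the 3 loci and the dashed line marks equal percentiles. Both Klf2 regions and the outer Klf4 pair stand above the percentile 85 in both lists, while 1 Klf5 region stands at 19.0 and 72.7.

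Several SOX2 regions around one gene were uncommon in the genome. At least 1 reproducible SOX2 region lay within 100 kb of 22.3% of the 21631 protein-coding genes, at least 2 within 100 kb of 5.26%, and at least 3 within 100 kb of 1.54%. All 3 Klf genes were in the second group and Klf4 and Klf5 in the third. These shares count genes and not separate loci, since neighbours share regions. Pibf1 had the same 3 regions as Klf5, Eps15l1 and Ap1m1 had the same 2 as Klf2, and Fam32a had 1. Genes up to 20 kb long, to which all 3 Klf genes belong, gave 18.0%, 4.15% and 1.36% of 11656. The counts of single libraries gave a like order: SOX2 replicate 1 had at least 2 peaks near 6.5% of genes, at least 3 near 2.33% and at least 4 near 0.938%, and it had 3 at Klf2, 3 at Klf4 and 4 at Klf5. SOX2 replicate 2 had at least 2 peaks near 13.5% of genes, at least 3 near 5.14% and at least 4 near 2.24%, and it had 2 at Klf2, 4 at Klf4 and 3 at Klf5. By the mean percentile of its best region, 1.28% of genes stood as high as Klf2 (96.1) or higher, 2.80% as high as Klf4 (91.4) and 8.80% as high as Klf5 (73.1). With no test of a single gene possible from 2 libraries, these shares describe where the 3 genes stand.

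**Figure D3:**
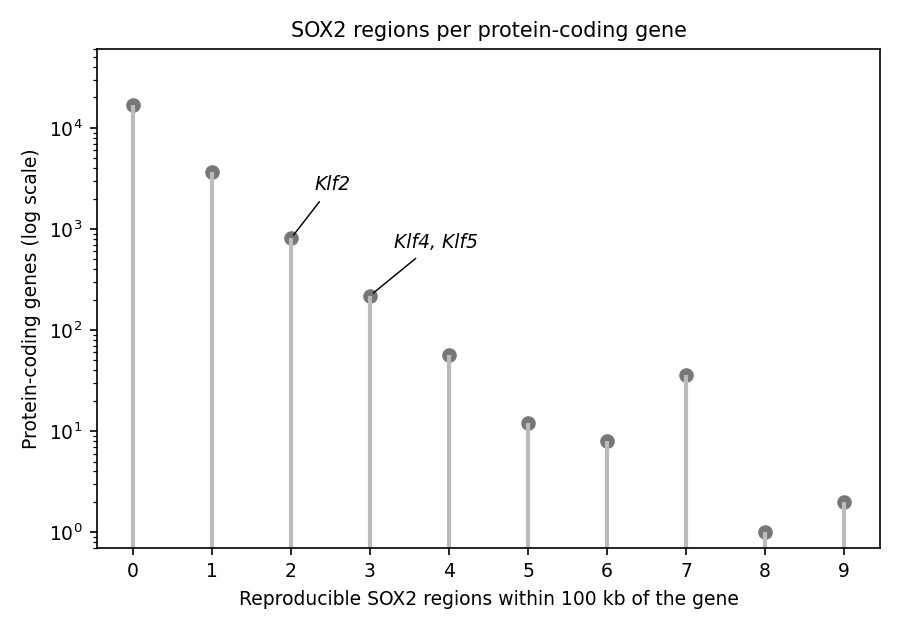
For each number of reproducible SOX2 regions within 100 kb (horizontal), the dot and line give the number of protein-coding genes on a log scale. Klf2 is among 805 genes with 2 regions, and Klf4 and Klf5 are among 218 with 3, while 16803 genes have none.

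SOX15 showed no peak at Klf4 or Klf5 in any of its 3 libraries. The nearest SOX15 summit on the same chromosome was 1.80 Mb from the inner Klf4 region and 13.8 Mb from the strongest Klf5 region. A SOX15 peak of any library lay within 100 kb of 12.8% of protein-coding genes, and a reproducible SOX15 region, called in at least 2 of the 3 libraries, near 3.43%. Taken singly, SOX15 replicates 1, 2 and 3 had a peak near 3.5%, 9.17% and 6.65% of genes. Of the 1138 genes with at least 2 reproducible SOX2 regions, 442 (38.8%) had a SOX15 peak of any library, Klf2 among them, and Klf4 and Klf5 were among the 696 without one (3.22% of all genes). Leaving out SOX15 replicate 2 left 0 SOX15 peaks at the 3 loci.

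Scaled to the length of the lists, the 3 loci held 0, 1.49 and 0 of every 1000 peaks in SOX15 replicates 1, 2 and 3, and 3.74 and 1.87 in SOX2 replicates 1 and 2. Over the 3 loci together, each SOX15 library was below each SOX2 library. At Klf2 alone, SOX15 replicate 2 held 1.49 per 1000, above the 1.12 and 0.415 of SOX2 replicates 1 and 2. For the 3 loci the mean was 0.496 ± 0.859 for SOX15 (SD, n = 3) and 2.80 ± 1.32 for SOX2 (SD, n = 2). The difference was -2.31 (two-sided exact permutation test over libraries, p = 0.2). The smallest p that 3 against 2 libraries can give is 0.1, so this test could not decide if the factors differ. The loci were also chosen with earlier results of these data known. SOX15 lists are shorter than SOX2 lists, so SOX2 lists were also read at the same lengths. Among its 672 strongest peaks, the length of the longest SOX15 list, SOX2 replicate 1 had 4 at these loci, 2 at Klf2 and 2 at Klf4, and replicate 2 had 4, 1 at Klf2 and 3 at Klf4. Klf5 had none within that length in either library. Among the 217 strongest, the length of the shortest SOX15 list, each SOX2 library had 2. No share over all protein-coding genes is given at these lengths, so the counts only describe the 3 loci.

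Whether the missing SOX15 peaks set the Klf regions apart could not be decided from 8 regions. None of the 8 overlapped a SOX15 peak, against 8.02% of all 2369 reproducible SOX2 regions. The 8 regions come from 3 chosen loci and are not independent draws, so no bound on their share was set. Without SOX2 replicate 2 the regions are the 10 peaks of replicate 1, and 1 of these overlapped a SOX15 peak, at the Klf2 start. The 8.02% covers regions called in both SOX2 libraries, and the share over all replicate 1 peaks is not given here. Of the 190 reproducible SOX2 regions with a SOX15 peak, 185 had one in SOX15 replicate 3, 72 in replicate 1 and 71 in replicate 2. The shares therefore rest mostly on replicate 3. The share of regions with a SOX15 peak differed between deciles of SOX2 strength. In the strongest decile by mean percentile, which holds the downstream Klf2 region, 36.3% of regions had a SOX15 peak, and each of these 86 of 237 regions was called in SOX15 replicate 3, against 14 in replicate 1 and 13 in replicate 2. In the ninth decile, with the upstream Klf2 region and the outer Klf4 pair, the share was 9.70%. It was 4.22% in the seventh decile, with the middle Klf4 and the strongest Klf5 region, and 3.80% and 2.11% in the deciles of the other Klf5 regions. The downstream Klf2 region was therefore among the 151 of 237 regions of its decile that no SOX15 library called. The lists give no read counts, so depth is unknown, and a weak signal may have been missed in calling.

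**Figure D4:**
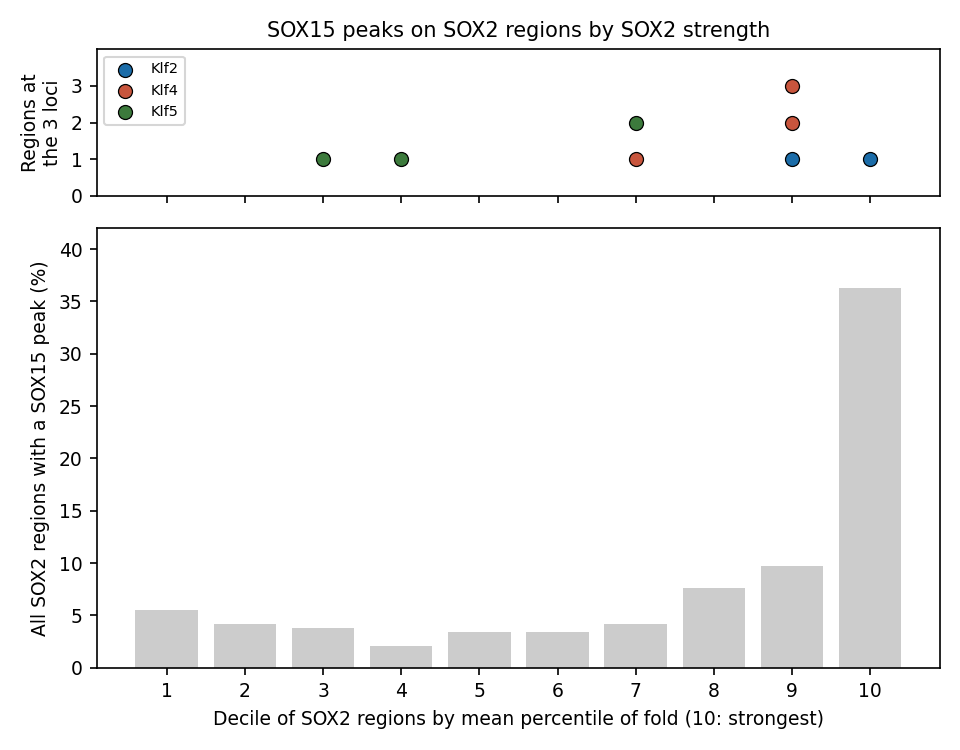
The bars give the percentage of reproducible SOX2 regions that overlap a SOX15 peak of any library, by decile of SOX2 strength (10 is strongest); the dots above count the regions of Klf2, Klf4 and Klf5 in each decile, none of which overlaps a SOX15 peak. The strongest decile stands at 36.3% and holds 1 Klf2 region.

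Across the wider KLF and SP family, Klf4, Klf5, Klf2 and Klf9 were the genes with more than 1 reproducible SOX2 region. Of the 26 family genes, 10 (38.5%) had at least 1 within 100 kb, against 22.3% of all protein-coding genes. Without the 3 it was 7 of 23 (30.4%), and the median was 0 regions, as over all genes. Klf9, a gene induced by glucocorticoid and thyroid hormone, had 2 regions, and its best region had a mean percentile of 98.8, above the best of Klf2. Klf13, Klf6, Klf7, Sp3, Sp8 and Sp9 had 1 each, with mean percentiles of 92.0 at Klf13, 81.6 at Klf6, 55.6 at Klf7, 42.3 at Sp3, 64.0 at Sp8 and 60.4 at Sp9. A further 8 genes had a peak in SOX2 replicate 2 and no reproducible region, among them Klf3 and Sp5, a WNT target gene. Klf11, Klf12, Klf14, Klf15, Klf16, Klf17 and Sp4 had no peak in the 5 libraries. The family count rests on both SOX2 libraries: in SOX2 replicate 2 alone it was 18 of 26, while the share of all genes was 37.1%.

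No family gene had a reproducible SOX15 region. A SOX15 peak of 1 library lay within 100 kb of 7 of the 26 genes (26.9%, against 12.8% of all genes), from 6 regions, since Sp2 and Sp6 share one. These were Klf2 and Klf1 in SOX15 replicate 2, Klf9, Klf10, Sp2 and Sp6 in replicate 3, and Sp1 in replicate 1. Klf1 is the erythroid member of the family. The peaks near these genes thus came from different libraries, and none was called a second time.

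**Figure D5:**
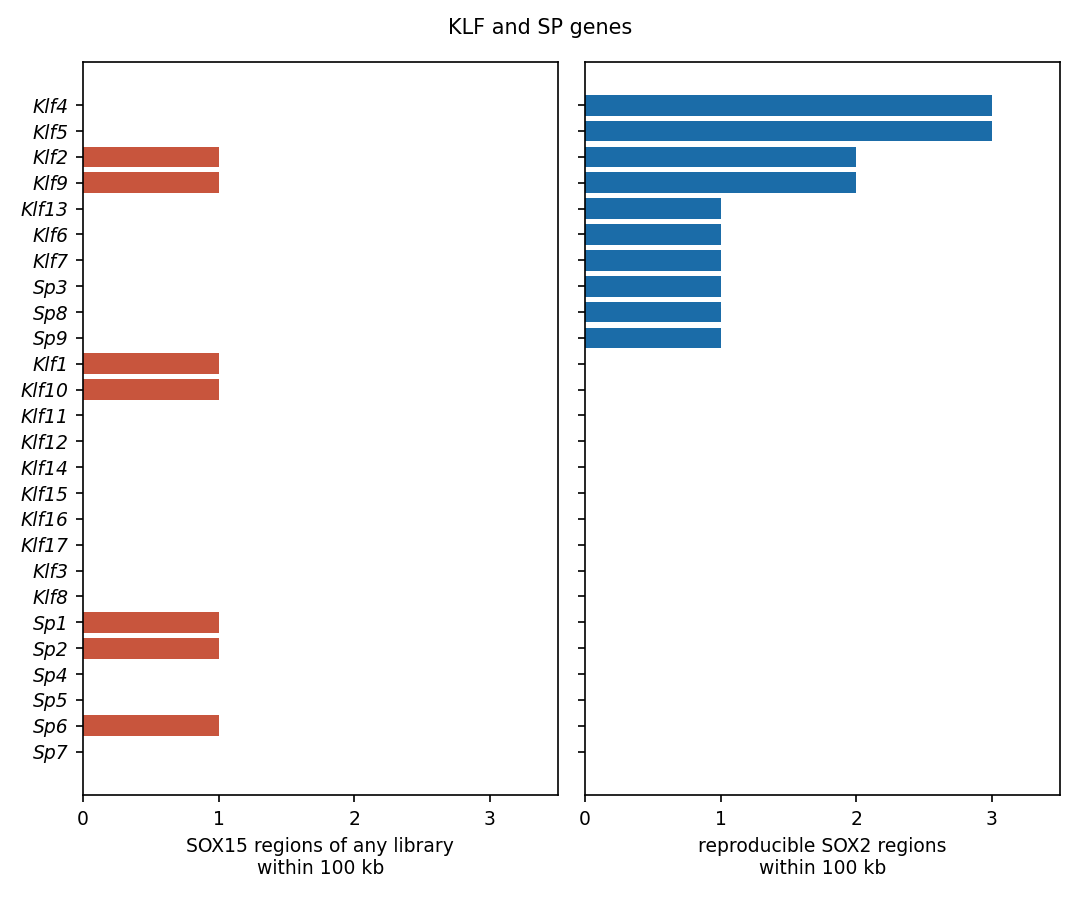
The bars give, for each of the 26 KLF and SP genes, the number of SOX15 regions of any library (left) and of reproducible SOX2 regions (right) within 100 kb. Klf4 and Klf5 have no SOX15 region and 3 SOX2 regions, while Klf2 and Klf9 have 1 SOX15 region and 2 SOX2 regions.

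Among 18 genes of the naive pluripotency network, 15 (83.3%) had a reproducible SOX2 region within 100 kb, with a median of 1.5 regions, against 22.3% and a median of 0 over all protein-coding genes. This list was made with earlier results of these data known and is no independent evidence. Dppa3, Esrrb, Lifr and Tbx3 had 3 SOX2 regions, like Klf4 and Klf5. Nanog, Pou5f1, Prdm14, Sox2 and Tfcp2l1 had 2, like Klf2; the rule for named genes allowed 6 names, and the tied genes Prdm14, Sox2 and Tfcp2l1 were added after their values were seen. Of these 9 genes, Lifr (the LIF receptor gene), Prdm14 and Sox2 had no SOX15 peak within 100 kb, like Klf4 and Klf5. Esrrb, an orphan nuclear receptor gene, and Tfcp2l1 had SOX15 peaks in each of the 3 libraries. Dppa3, Nanog and Pou5f1 had them in replicate 3 alone, and Tbx3, a T-box factor gene, in replicate 2 alone. The 100 kb windows of Dppa3 and Nanog, both on chromosome 6, overlap, and peaks in the overlap count for both. Counts over this list are thus counts of genes and not of separate loci. A SOX15 peak of any library lay near 8 of the 18 genes (44.4%), against 12.8% of all protein-coding genes. A reproducible SOX15 region lay near 3 of the 18, Esrrb, Tfcp2l1 and Zfp42, against 3.43% of all protein-coding genes.

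Few or many genes had the same numbers of peaks in the 5 libraries, depending on the Klf gene. For Klf2, with 1 peak in SOX15 replicate 2, 3 in SOX2 replicate 1 and 2 in SOX2 replicate 2, 5 other protein-coding genes had equal counts, of which Cdkn1a, Enox1 and Mapre2 come first by symbol. For Klf4, with 3 and 4 SOX2 peaks, 46 other genes had equal counts, beginning with Adgrb2, Akap12 and Ampd1. For Klf5, with 4 and 3 SOX2 peaks, no gene had equal counts, and 71 genes stood at a distance of 0.268 (Euclidean, on square roots of the 5 counts), the first by symbol being A930007A09Rik, Actn3 and Adnp2. Some of these genes share peaks with each other, so the numbers count genes and not separate loci.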

How the data were processed

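Peak lists of 3 SOX15 and 2 SOX2 ChIP libraries were analysed, 1 list per sample, with groups and replicate numbers from the titles. Per the submitters' processing notes, which give no versions, Bowtie2, MACS2 and deepTools were used with build mm10. Each peak came with values the authors deposited: its fold enrichment, a linear ratio to background signal, its −log10 p-value and −log10 q-value, the offset of its summit, and a whole-number score. In each list the deposited score was the −log10 q-value times 10, cut to a whole number. The fold is the authors' own value and ranks peaks only within a list. The sources used here do not say if inputs served as control. The smallest deposited −log10 q-values were 2.76, 2.03 and 1.31 for SOX15 replicates 1, 2 and 3, and 2.10 and 2.20 for SOX2 replicates 1 and 2.

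From the lists, peaks of 1 factor were merged into regions (overlap of at least 1 bp) and regions were assigned to genes of the GRCm38.p6 RefSeq table by a summit within 100 kb. A percentile is the share of a list with a fold at or below the peak's. Start sites came from the RefSeq promoter table, which held 20 of the 26 KLF and SP genes, Klf2 and Klf4 among them. Planned protein and distal sequence features were not analysed here. The 1 test was a two-sided exact permutation over libraries. Region merging was tested on simulated peaks. Members and lists were chosen with earlier results of these data known. The named genes were the 3 members, KLF and SP genes with a reproducible SOX2 region, protein-coding neighbours within 100 kb, the nearest gene of each region, up to 6 naive pluripotency genes and 3 genes most like each member in peak counts; other names followed from values already seen. Alternatives changed the window, the q-value, the merging rule, the overlap rule and the libraries used. Python 3.11.15, numpy 2.4.6, pandas 2.3.3 and matplotlib 3.10.9 were used.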

Additional observations from a re-analysis of the deposited data

How the results depend on the processing

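The number of reproducible SOX2 regions at the 3 loci was 8, and lay between 6 (window of 50 kb) and 11 (a peak in at least 1 library) under the alternatives. At Klf4 it was 1 in place of 3 with a window of 50 kb. Of the reproducible SOX15 regions there were 0 under each alternative but a call in at least 1 library, which gave 1, at Klf2. The SOX2 regions that overlap a SOX15 peak numbered 0, but 1 when a SOX2 region needed 1 library, an alternative chosen after seeing the data, and 0 to 1 when each library was left out in turn. The share of all genes with a SOX2 region, 22.3%, was 14.2% within 50 kb, 40.5% within 250 kb, 38.6% with at least 1 library, and 24.3% to 37.1% with each SOX2 library left out. For the KLF and SP family the count of 10 became 18 with at least 1 library, and 11 to 18 with each SOX2 library left out. The naive list held 15 to 17 under its alternatives.

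The difference in peaks per 1000 kept its sign under each alternative, and lay between -3.24 and -1.37 with a library left out. Within 50 kb it was -1.73 (two-sided exact permutation test over libraries, p = 0.3). In that window not every SOX15 library was below every SOX2 library. No label says that a replicate number marks a shared culture or day across factors. With the replicate number as a block, from replicates 1 and 2, the difference was -2.06. Depth is unknown, so a missing peak does not show a lack of binding.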
